A study of Mus musculus with 16 samples.

Results

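Mandibular first molar germs of *Rsk2* knockout male embryos (*Rsk2-/Y*) were compared with those of wild-type (WT) males in the 8 arrays whose sample names carry the code AZN, 4 *Rsk2-/Y* and 4 WT, out of 16 samples in the series. The other 8 carry the code ABH and enter only the comparisons between AZN and ABH, besides the authors' joint normalization of all samples. What both codes stand for is not given in the sources used here. Each array measured total RNA of 1 pool of 4 tooth germs taken at embryonic day 14.5 from embryos on a C57Bl6 background, with no treatment given in the labels. The knockout is a germline inactivation of the X-linked gene that encodes RSK2, so that it is present in all cells of the germ, and the controls were littermate males. All probe sets with a single gene symbol and a log2 signal above 5 in at least 1 of the 8 pools were used, which gave 18747 of 35556 probe sets and 17136 genes. Where several probe sets covered a gene, the brightest on average over the 8 pools stood for it. Values are log2 signals, differences are log2 values of *Rsk2-/Y* minus those of WT, and errors after ± are standard errors from limma unless marked SD. The WT pools are named 1, 2, 3 and unnumbered and the *Rsk2-/Y* pools 1, 3, 4 and unnumbered, and values are given in these orders. Nothing in the labels says whether the pools of a genotype came from separate litters, so a p-value measures the spread between these pools.

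RSK2 is a serine/threonine kinase at the end of the ERK cascade, where it is activated by growth factor signals and phosphorylates transcription factors, translation factors and feedback components. Its loss in humans causes Coffin-Lowry syndrome, with skeletal and dental anomalies. At the stage sampled the molar germ is a cap of epithelium, with the enamel knot as its signalling centre, around neural crest derived dental mesenchyme. The germ lies in the lower jaw beside the forming bone, the tongue and jaw muscles, nerves and vessels, so a microdissected pool can hold some of these tissues. In such pools fewer cells of a type and less RNA per cell cannot be told apart.

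No gene passed the study's thresholds, an adjusted p under 0.1 with a change beyond 1.2-fold in either direction (limma, 0 of 17136 genes, 0.0% higher and 0.0% lower). The smallest adjusted p was 0.9996 (limma, Benjamini-Hochberg), so every difference below is a measured value that did not pass. At an unadjusted p under 0.05 the limma fit had 236 genes higher and 237 lower, 1.38% of the genes tested in each direction. The methods' t-test also called 0 genes after adjustment, with 201 higher and 258 lower before it. Groups that did not overlap, with all 4 *Rsk2-/Y* pools above or below all 4 WT pools, were seen for 125 genes (0.729%) and 140 genes (0.817%). The median difference over all genes was -0.0027 and 48.7% lay above 0. Differences beyond 1.2-fold were found in 334 genes above and 181 genes below 0. The counts at an unadjusted p under 0.05 depended on single pools. Without WT 1 there were 134 higher genes and without *Rsk2-/Y* 4 there were 420, while lower genes numbered 505 without WT 2 and 412 without the unnumbered *Rsk2-/Y* pool. The plot of difference against p shows where the gene groups described here lie.

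**Figure D1:**
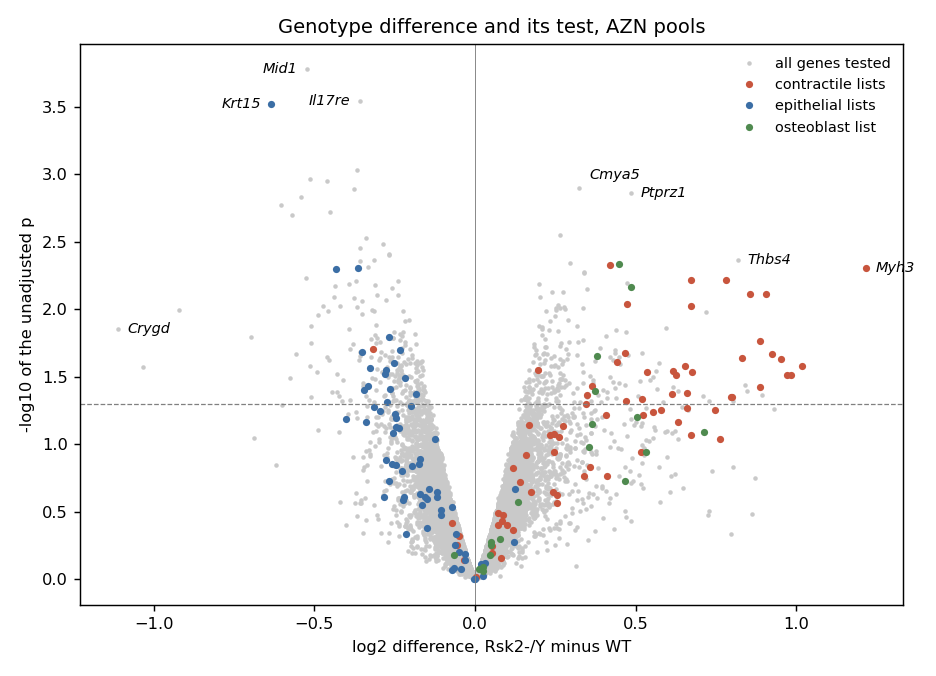
Log2 difference of each of the 17136 genes, *Rsk2-/Y* minus WT in the AZN pools (x axis), against -log10 of its unadjusted limma p (y axis). Grey points are all genes, coloured points are genes of the contractile, epithelial and osteoblast lists, and the dashed line marks an unadjusted p of 0.05. Contractile and osteoblast genes lie mostly to the right of 0 and epithelial genes to the left, and no gene passed after adjustment.

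*Rps6ka3*, the gene that encodes RSK2, had signals of 9.95, 9.61, 9.68 and 10.003 in the WT pools and 9.78, 9.74, 9.87 and 10.04 in the *Rsk2-/Y* pools. The ranges overlap almost fully, with a difference of 0.05 ± 0.11 (exact permutation test over 70 arrangements, two-sided, p = 0.686, and 0.943 adjusted over 7 genes). The knockout allele lacks an early exon and the probes of this array are spread along the transcript, so its signal is a weak check of the labels. *Rps6ka6*, which encodes RSK4, differed by -0.06 ± 0.11 (exact permutation p = 0.571), and *Rps6ka5*, which encodes the related kinase MSK1, by -0.14 ± 0.09 (exact permutation p = 0.114, 0.8 after adjustment). The smallest p that 4 pools against 4 allow is 0.0286. The remaining members *Rps6ka1*, *Rps6ka2* and *Rps6ka4* lacked a probe set with their symbol alone, and are not analysed here.

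Signals of *Kdm5d*, *Eif2s3y* and *Uty*, all on the Y chromosome, were at 8.23 to 9.15 in all 8 pools. *Xist*, which coats an inactive X chromosome, was 6.68, 5.23, 5.17 and 5.22 in the WT pools and 5.52, 5.56, 5.22 and 5.38 in the *Rsk2-/Y* pools. WT 1 stood above the other 7 pools, which lay between 5.17 and 5.56. The genotype difference passed in none of the 4 genes (exact permutation test, smallest p = 0.686, 0.943 after adjustment).

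The pools did not part by genotype on the first components of a principal component analysis, where 33.4%, 25.9% and 13.3% of the variance fell on the leading 3. Along the first, the unnumbered WT and *Rsk2-/Y* pools lay together at -20.6 and -19.6, apart from the 6 numbered pools at -1.83 to 16.4. On the second, *Rsk2-/Y* 3 stood alone at 28.2 while the other 7 pools lay between -9.78 and 2.35. Correlations between pools over the genes tested were 0.987 to 0.994 within WT, 0.987 to 0.995 within *Rsk2-/Y* and 0.986 to 0.997 between the genotypes, and array medians ranged from 6.74 to 6.92. Markers of dental epithelium and dental mesenchyme were above the signal threshold of 5 in every pool, with list means of at least 9.13 and 9.68. List medians below depended on single pools, and of the 40 lists described 17 had a median that changed sign when 1 pool was left out.

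The largest group of higher values was formed by genes of striated muscle. Over 3 lists of contractile genes, 69 of 74 genes tested had a mean above WT, 32 of them at an unadjusted p under 0.05, against 1.38% of all genes. Of the 5 genes below 0, *Nebl*, a nebulin-related protein of the Z disc that is also made outside skeletal muscle, was the 1 lower gene at an unadjusted p under 0.05 (-0.32 ± 0.11). With the mean over the probe sets of a gene, or without the unnumbered *Rsk2-/Y* pool, no contractile gene was lower at that level. Genes of these lists made up 32 of the 236 higher genes and 1 of the 237 lower genes at that level. Their median difference was 0.43. None passed after adjustment.

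Within the lists, the thick filament and titin genes had 18 of 19 above 0 and a median of 0.62, and the thin filament and Z disc genes had 23 of 26 above 0 and a median of 0.62. The genes of excitation, calcium handling and muscle energy use had 28 of 29 above 0 and a median of 0.25. These lists held 12, 15 and 5 higher genes at an unadjusted p under 0.05. Without *Rsk2-/Y* 3 their medians were 0.36, 0.32 and 0.12.

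*Myh3*, the myosin heavy chain of embryonic muscle, had the largest difference of all genes. Its signals were 8.32, 9.86, 8.51 and 8.72 in the WT pools and 9.84, 10.86, 10.03 and 9.55 in the *Rsk2-/Y* pools. All *Rsk2-/Y* pools and WT 2 lay above the other 3 WT pools, with a difference of 1.22 ± 0.34. The perinatal myosin gene *Myh8* split the pools the same way, at 7.52, 8.53, 7.47 and 7.36 in the WT pools and 8.42, 9.15, 8.48 and 8.25 in the *Rsk2-/Y* pools (0.86 ± 0.26). *Myh7*, the slow and cardiac myosin, differed by 0.78 ± 0.23, the myosin light chain gene *Myl1* by 0.98 ± 0.39 and *Ttn*, the giant spring of the sarcomere, by 0.89 ± 0.31.

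In the thin filament, *Tnnc1*, the slow troponin C that binds calcium, was at 7.83, 9.33, 7.94 and 8.09 in the WT pools and 9.005, 10.45, 9.002 and 8.81 in the *Rsk2-/Y* pools. *Rsk2-/Y* 3 was the highest pool and WT 2 the next, and the difference was 1.02 ± 0.39. *Tnni1*, slow troponin I, differed by 0.95 ± 0.36, *Actn2*, which anchors actin at the Z disc, by 0.97 ± 0.39 and *Neb*, the thin filament ruler, by 0.92 ± 0.34. *Klhl41*, a kelch protein of the sarcomere, differed by 0.93 ± 0.43. *Casq2*, which stores calcium in the sarcoplasmic reticulum, was at 6.23, 7.35, 6.04 and 6.43 in the WT pools and 6.98, 8.54, 7.26 and 6.82 in the *Rsk2-/Y* pools (0.89 ± 0.37). For the subunits *Chrna1* and *Chrng* of the acetylcholine receptor of fetal muscle the differences were 0.76 ± 0.41 and 0.58 ± 0.27, and for the calcium pump *Atp2a1* 0.75 ± 0.35.

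**Figure D2:**
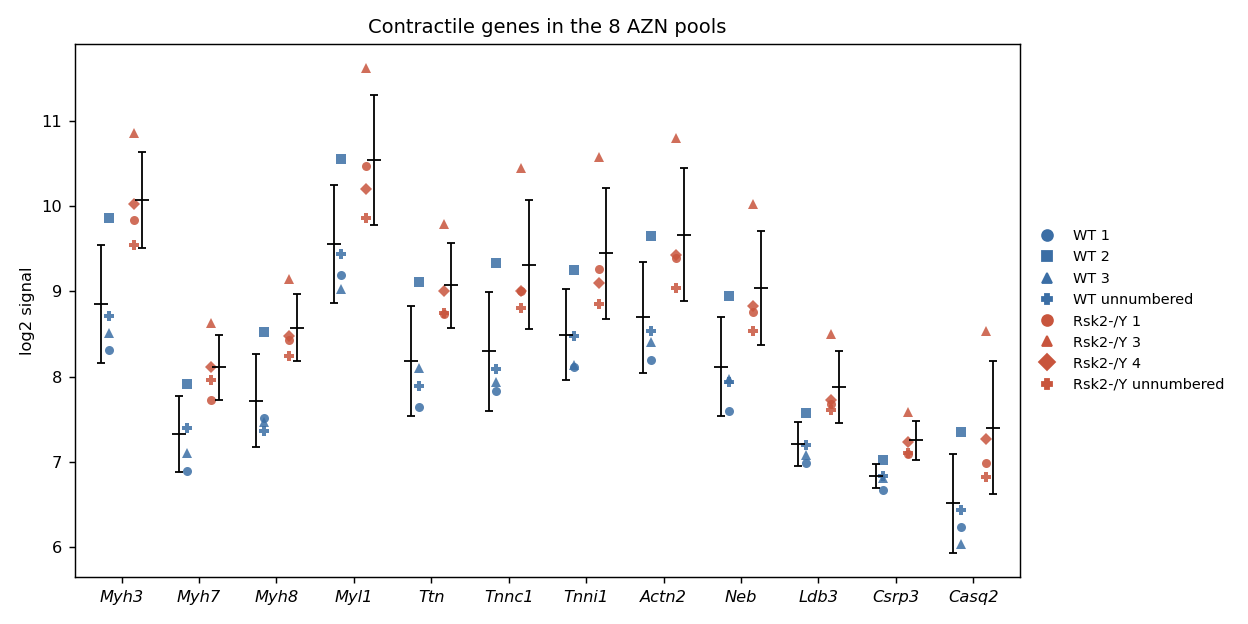
Log2 signal (y axis) of 12 contractile genes (x axis) in each of the 4 WT pools (blue) and 4 *Rsk2-/Y* pools (red), with a symbol for each pool number. Black dashes and bars give the mean and SD of each genotype. In each gene *Rsk2-/Y* 3 is the highest pool and WT 2 the highest WT pool, and the genotypes do not overlap only in *Ldb3* and *Csrp3*.

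Few of these genes separated the genotypes. The groups did not overlap in 5 higher genes of the 74, against 0.729% of all genes, and in 1 lower gene, *Nebl*. The higher ones were *Ldb3* and *Csrp3*, a PDZ and a LIM protein of the Z disc, *Myh1*, an adult fast myosin, *Lmod3*, which nucleates thin filaments, and *Cav3*, the caveolin of the muscle membrane, of which *Lmod3* and *Cav3* were named after their values were seen. *Ldb3* was at 6.98, 7.57, 7.08 and 7.19 in the WT pools and 7.68, 8.50, 7.73 and 7.60 in the *Rsk2-/Y* pools (0.67 ± 0.20) and *Csrp3* at 6.67, 7.02, 6.81 and 6.83 in the WT pools and 7.09, 7.58, 7.23 and 7.11 in the *Rsk2-/Y* pools (0.42 ± 0.12). WT 2 was above the lowest *Rsk2-/Y* pool in 64 of the 74 genes and was the highest WT pool in 64. *Rsk2-/Y* 3 was the highest pool of all in 62.

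Mean signals of the thick filament list were 6.85, 7.55, 6.92 and 7.02 in the WT pools and 7.48, 8.20, 7.51 and 7.37 in the *Rsk2-/Y* pools. They place 3 WT pools at the bottom, WT 2 among the *Rsk2-/Y* pools and *Rsk2-/Y* 3 at the top. The number of contractile genes higher at an unadjusted p under 0.05 was 8 without WT 1, 10 without WT 3, 17 without the unnumbered WT pool and 17 without *Rsk2-/Y* 3, against 43 without WT 2. It was 9 of 74 by the methods' t-test. In the order given, all higher genes at that level numbered 134, 172, 274, 181 and 255, and 201 by the methods' t-test, beside 236 in the main fit. The median of the 74 was 0.24 without *Rsk2-/Y* 3 and 0.37 to 0.53 without each of the other 7 pools.

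Promoter sequence is shown for 3 of the higher contractile genes that carry matches to both motifs searched, as *Mylk4* and *Myom3* also do. The motifs are those of the myogenic basic helix-loop-helix factors and of the MEF2 factors, whose genes are described next. Of the 32 contractile genes higher at an unadjusted p under 0.05, 26 matched a promoter of the RefSeq set of GRCm38.p6. The 250 bases before the start were searched for the E-box CANNTG, which reads the same on both strands, and for the MEF2 consensus on both strands, counting matches of a motif without overlap. An E-box was found in 20 of the 26 (76.9%), beside 66.2% of all 32851 promoters, and a MEF2 match in 6 of the 26 (23.1%), beside 1.69%. These were *Myh8*, *Casq2*, *Ttn*, *Mylk4*, *Myh1* and *Myom3*. The MEF2 match began 99 bases before the start in *Myh8*, 69 in *Casq2* and 166 in *Ttn*. No share is given for contractile genes that were not higher, so these shares are not tied to the genotype difference. A match is a description of these letters only. Capitals mark the E-box and MEF2 matches, written 5′ to 3′ on the strand of the gene.
*Myh8* (chr11:67276874-67277123, plus strand): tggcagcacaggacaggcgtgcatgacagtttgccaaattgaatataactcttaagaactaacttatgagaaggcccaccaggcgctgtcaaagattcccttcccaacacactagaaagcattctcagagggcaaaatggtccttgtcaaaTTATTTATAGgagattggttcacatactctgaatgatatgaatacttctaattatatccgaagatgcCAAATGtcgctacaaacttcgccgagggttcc
*Casq2* (chr3:102086165-102086414, plus strand): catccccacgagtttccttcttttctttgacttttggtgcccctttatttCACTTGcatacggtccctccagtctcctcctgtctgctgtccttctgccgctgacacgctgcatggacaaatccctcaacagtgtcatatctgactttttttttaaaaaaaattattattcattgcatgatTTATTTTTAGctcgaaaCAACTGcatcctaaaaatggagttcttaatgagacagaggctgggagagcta
*Ttn* (chr2:76982548-76982797, minus strand): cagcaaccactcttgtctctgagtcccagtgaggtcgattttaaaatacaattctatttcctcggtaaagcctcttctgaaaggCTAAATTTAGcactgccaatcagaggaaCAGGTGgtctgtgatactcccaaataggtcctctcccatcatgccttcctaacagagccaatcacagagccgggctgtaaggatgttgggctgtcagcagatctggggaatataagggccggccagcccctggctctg

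Of the myogenic regulators, 12 of 17 lay above 0 with a median of 0.11 (0.07 without *Rsk2-/Y* 3). Of these, 2 were higher at an unadjusted p under 0.05, beside 1.38% of all genes. *Mymk*, the membrane protein that fuses myoblasts, was at 7.58, 8.79, 7.98 and 8.08 in the WT pools and 8.74, 10.13, 8.54 and 8.40 in the *Rsk2-/Y* pools. *Rsk2-/Y* 3 was more than 1 unit above any other pool, and the difference was 0.85 ± 0.36. *Mef2c*, which also belongs to the osteoblast list, differed by 0.37 ± 0.16. The myogenic factors *Myod1* and *Myog* had differences of 0.47 ± 0.30 and 0.60 ± 0.36. For *Myod1* the pools were at 7.48, 8.21, 7.71 and 7.84 in the WT pools and 7.92, 9.33, 8.03 and 7.83 in the *Rsk2-/Y* pools, so that *Rsk2-/Y* 3 was far from the rest, which overlapped. *Fgfr4*, an FGF receptor of muscle precursors, differed by 0.34 ± 0.24, and *Rxrg*, a retinoid X receptor also made in muscle, by 0.84 ± 0.35, with *Rsk2-/Y* 3 highest in both. Other higher genes known from striated muscle were *Cmya5* (0.33 ± 0.07), a partner of desmin that led all higher genes by unadjusted p, and *Ankrd1* (0.47 ± 0.14), a titin-bound ankyrin repeat protein. Neither overlapped between the genotypes.

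Bone and tendon genes lay above 0 as well. In the osteoblast list 18 of 19 were above 0, beside 48.7% of all genes, and 4 of them at an unadjusted p under 0.05, beside 1.38%, with a median of 0.35. *Alpl*, the alkaline phosphatase of mineralising cells, was at 11.20, 11.06, 11.07 and 11.27 in the WT pools and 11.51, 11.92, 11.28 and 11.70 in the *Rsk2-/Y* pools. Its groups did not overlap, by a narrow gap between the unnumbered WT pool and *Rsk2-/Y* 4, and the difference was 0.45 ± 0.13. *Sp7*, the transcription factor osterix, was the other osteoblast gene without overlap, which 0.729% of all genes showed (0.38 ± 0.14, named after its value was seen). *Omd*, which encodes osteomodulin, differed by 0.49 ± 0.15 and *Smpd3*, a sphingomyelinase of mineralising tissue, by 0.51 ± 0.24. *Phex*, a peptidase that controls phosphate, was at 7.51, 7.77, 7.64 and 8.16 in the WT pools and 8.03, 9.84, 7.82 and 8.24 in the *Rsk2-/Y* pools. Here *Rsk2-/Y* 3 was the pool apart and the others overlapped (0.71 ± 0.37). *Ifitm5*, a bone-specific membrane protein, differed by 0.53 ± 0.31. *Rsk2-/Y* 3 was the highest pool in 14 of the 19 genes, and without it the list's median was 0.15.

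The tendon list had 10 of 11 genes above 0 and a median of 0.21 (0.14 without the unnumbered *Rsk2-/Y* pool). *Thbs4*, a matrix protein of tendon and muscle attachments, was at 8.66, 9.58, 9.20 and 9.47 in the WT pools and 9.85, 10.64, 9.73 and 9.97 in the *Rsk2-/Y* pools, without overlap (0.82 ± 0.23). The tendon transcription factors *Scx* and *Mkx* differed by 0.34 ± 0.11 and 0.29 ± 0.11. Cartilage genes had 14 of 19 above 0 with a median of 0.06 (0.01 without *Rsk2-/Y* 3), led by *Col11a1* at 0.32 ± 0.11. The collagens as a family had 14 of 25 above 0 with a median of 0.01 (-0.02 to 0.05 leaving out each pool). Of the remaining leading higher genes, *Ptprz1*, a receptor phosphatase of neural and mesenchymal cells, was at 8.27, 8.20, 8.34 and 8.39 in the WT pools and 8.57, 9.11, 8.64 and 8.82 in the *Rsk2-/Y* pools (0.49 ± 0.11). *Steap3*, an iron reductase, and the homeobox gene *Hoxb2* differed by 0.34 ± 0.10 and 0.26 ± 0.07. The groups of these 3 genes did not overlap.

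Epithelial genes lay on the other side of 0. Over 3 lists, 59 of 65 genes tested had a mean below WT, 16 of them at an unadjusted p under 0.05 and none higher at that level, against 1.38% of all genes. Their median difference was -0.22. They made up 16 of the 237 lower genes. In the dental epithelium list all 20 genes tested lay below 0 (median -0.24), in the junction list 26 of 28 (median -0.19) and among epithelial transcription factors 19 of 23 (median -0.17). Leaving out each pool in turn, these medians ranged over -0.35 to -0.17, -0.26 to -0.13 and -0.27 to -0.11. None passed after adjustment.

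*Krt15*, a keratin of basal epithelial cells, was at 10.76, 10.21, 10.29 and 10.43 in the WT pools and 9.89, 9.70, 9.66 and 9.90 in the *Rsk2-/Y* pools. The groups did not overlap, and its difference of -0.63 ± 0.12 was the largest of the 65. *Esrp2*, an epithelial splicing factor, was at 8.83, 8.34, 8.49 and 8.62 in the WT pools and 8.20, 8.13, 8.32 and 8.16 in the *Rsk2-/Y* pools, also without overlap (-0.36 ± 0.10). *Grhl3*, a grainyhead factor of surface epithelium, differed by -0.43 ± 0.12 without overlap, as did the laminin gene *Lama3* (-0.28 ± 0.11, named after its value was seen). These were the 4 of 65 genes whose groups did not overlap, all lower, against 0.817% of all genes.

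Among the others, *Krt19* differed by -0.34 ± 0.15, the tight junction genes *Cldn4* and *Cldn1* by -0.35 ± 0.13 and -0.28 ± 0.23, and the desmosomal cadherins *Dsg3* and *Dsc2* by -0.40 ± 0.19 and -0.33 ± 0.13. The transcription factors *Sox2*, *Tfap2a* and *Grhl2* differed by -0.33 ± 0.14, -0.31 ± 0.14 and -0.30 ± 0.14. Keratins and cornified genes of the oral surface had 9 of 19 above 0 and a median of -0.02 (-0.07 to -0.0046 leaving out each pool). In this list *Krt13* was at 8.27, 7.05, 7.57 and 8.28 in the WT pools and 7.11, 6.97, 6.94 and 7.74 in the *Rsk2-/Y* pools (-0.60 ± 0.27), with WT 1 and both unnumbered pools high, while *Krt6a* and *Krt4* differed by -0.51 ± 0.20 and -0.39 ± 0.17.

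Mean signals of the dental epithelium list were 9.85, 9.36, 9.60 and 9.74 in the WT pools and 9.53, 9.13, 9.48 and 9.45 in the *Rsk2-/Y* pools. WT 2 was the lowest WT pool and lay below 3 of the 4 *Rsk2-/Y* pools, and *Rsk2-/Y* 3 was the lowest of all. *Rsk2-/Y* 3 was the lowest pool in 32 of the 65 epithelial genes and WT 2 the lowest WT pool in 48. Lower genes of the 65 at an unadjusted p under 0.05 numbered 4 without WT 1, 7 without the unnumbered WT pool, 9 without *Rsk2-/Y* 3 and 34 without WT 2. In the same order, all lower genes at that level numbered 165, 188, 187 and 505, beside 237 with all pools. The median of the 65 was -0.14 without WT 1 and -0.30 without WT 2.

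The contractile and the epithelial means ran against each other over the 8 pools, a relation that includes the difference between the genotypes. It did not hold among *Rsk2-/Y* 1, 4 and unnumbered, where the unnumbered pool had the lowest of both means. Thick filament means there were 7.48, 7.51 and 7.37, and dental epithelium means 9.53, 9.48 and 9.45. Across the 8 pools the thick filament mean and the dental epithelium mean had a Pearson r of -0.94, as a description over pools that share a protocol, an array type and a joint RMA normalization. WT 2, with the highest contractile mean of its genotype, had the lowest epithelial mean of its genotype, and the same held for *Rsk2-/Y* 3. The r between the thick filament and the osteoblast means was 0.75. For the dental mesenchyme list, with 14 of 24 genes above 0 and a median of 0.02 (-0.06 to 0.08 leaving out each pool), the r with the thick filament mean was -0.38. The part of tissue makeup in the genotype differences was not tested.

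**Figure D3:**
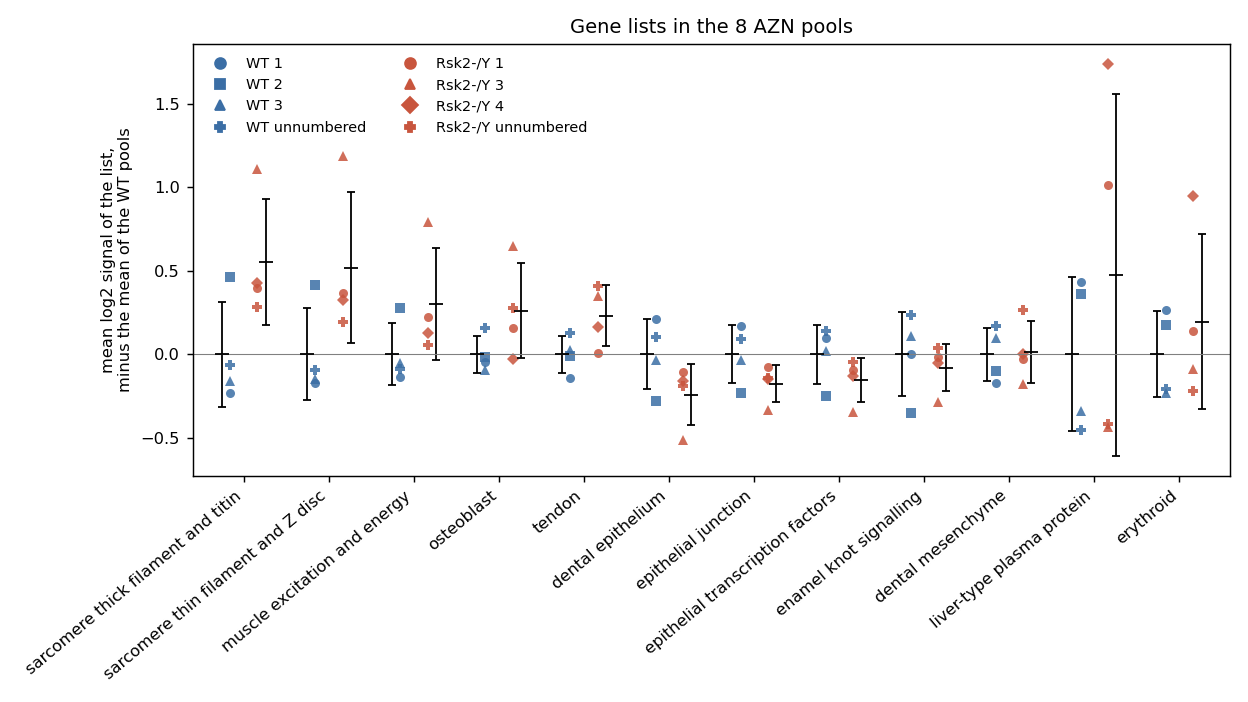
Mean log2 signal of 12 gene lists in each pool, minus the mean of the 4 WT pools (y axis), for WT pools (blue) and *Rsk2-/Y* pools (red), with mean and SD of each genotype in black. *Rsk2-/Y* 3 is highest in the 3 contractile lists and the osteoblast list and lowest in the 3 epithelial lists, WT 2 is the highest WT pool in the contractile lists, and *Rsk2-/Y* 4 and 1 are highest for plasma protein genes.

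By unadjusted p the leading genes were lower ones. *Mid1*, an X-linked ubiquitin ligase of microtubules that spans the edge of the pseudoautosomal region in the mouse, was first. It was at 10.23, 10.44, 10.22 and 10.29 in the WT pools and 9.69, 9.60, 9.96 and 9.83 in the *Rsk2-/Y* pools, a gap without overlap, with a difference of -0.52 ± 0.09 and an unadjusted limma value that ranked first of 17136. *Il17re*, an interleukin 17 receptor subunit of epithelia, was at 7.64, 7.53, 7.60 and 7.45 in the WT pools and 7.23, 7.20, 7.20 and 7.16 in the *Rsk2-/Y* pools (-0.36 ± 0.07). *Ctnnd2*, a catenin of the p120 family, was at 9.25, 9.09, 9.28 and 9.28 in the WT pools and 8.81, 8.72, 8.93 and 8.97 in the *Rsk2-/Y* pools (-0.37 ± 0.08). *Meis2*, a homeobox factor of cranial neural crest, was at 11.78, 11.38, 11.56 and 11.40 in the WT pools and 10.90, 11.16, 11.19 and 11.04 in the *Rsk2-/Y* pools (-0.46 ± 0.10). In each of these 4 genes all *Rsk2-/Y* pools lay below all WT pools.

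*Tbx22*, an X-linked T-box factor of the palate and tongue, was at 6.53, 6.68, 6.82 and 6.70 in the WT pools and 6.42, 6.12, 6.28 and 5.87 in the *Rsk2-/Y* pools (-0.51 ± 0.11). Of genes for epithelial transport and metabolism, the chloride channel *Cftr* differed by -0.60 ± 0.14, the carbonic anhydrase *Car12* by -0.54 ± 0.13, the aldehyde dehydrogenase *Aldh3b2* by -0.45 ± 0.11 and the carboxypeptidase *Cpm* by -0.38 ± 0.09. The adaptor gene *Shc3* differed by -0.57 ± 0.14 and overlapped in 1 pair of pools, WT 2 and the unnumbered *Rsk2-/Y* pool. *Nkain2*, a partner of the sodium pump, differed by -0.34 ± 0.09 in the probe set with the higher signal and by -0.06 in its other one. Of the 12 lower genes with the smallest p beyond 1.2-fold, 11 did not overlap, which their choice by p makes likely.

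**Figure D4:**
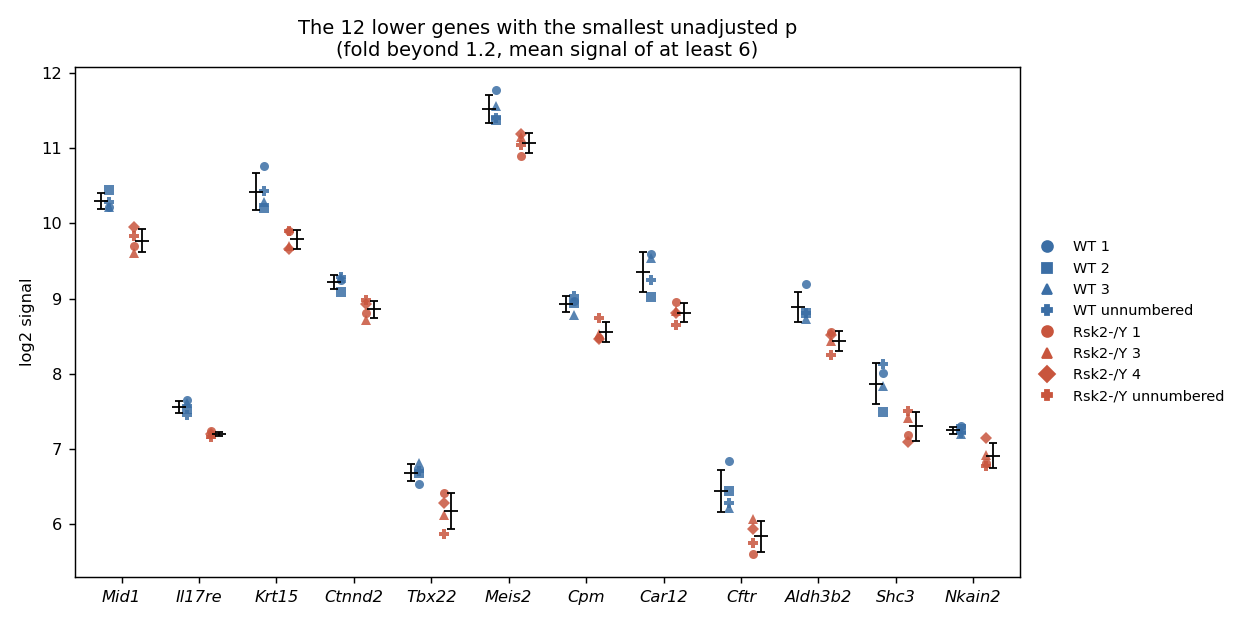
Log2 signal (y axis) of the 12 lower genes with the smallest unadjusted p among those beyond 1.2-fold with a mean signal of at least 6 (x axis) in each WT pool (blue) and *Rsk2-/Y* pool (red), with mean and SD of each genotype in black. The genotypes overlap only in *Shc3*, and none of the 12 passed after adjustment.

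At an unadjusted p under 0.05, 12 of the 563 X-linked genes tested had higher and 6 lower values, near the 1.38% of all genes in each direction, with a median of -0.0034. Of the 40 tested genes nearest to *Rps6ka3*, 20 on each side by their order in the RefSeq genes of GRCm38.p6, 20 lay above 0 and 2 were higher and none lower at an unadjusted p under 0.05 (limma). Those were *Smpx* (0.80 ± 0.35), a small muscle protein of the thin filament and Z disc list, and *Ppef1* (0.33 ± 0.13), a calcium-binding phosphatase, both named after their values were seen. *Phex* of the osteoblast list lies in the same stretch. Of the X-linked leading genes, *Mid1* was 46 and *Tbx22* 139 tested genes away from *Rps6ka3*.

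Genes of the cascade that feeds RSK2 had values close to 0. In the ERK cascade list 9 of 11 lay below 0, with a median of -0.07 (-0.10 to -0.04 leaving out each pool) and none at an unadjusted p under 0.05 in either direction (limma), and held the adaptor *Grb2* (-0.16 ± 0.08) and, without overlap, the GTPase *Nras* (-0.12 ± 0.06). Of 14 feedback genes that ERK signalling induces, 12 lay below 0 (median -0.07, and -0.02 without the unnumbered WT pool). Lower at an unadjusted p under 0.05 were 2 of them, beside 1.38% of all genes. *Etv5*, an ETS factor induced by FGF, was at 8.89, 8.73, 9.42 and 9.47 in the WT pools and 8.70, 7.89, 8.65 and 8.97 in the *Rsk2-/Y* pools. The unnumbered WT pool and WT 3 were high and *Rsk2-/Y* 3 low, with overlap in between, and the difference was -0.58 ± 0.23, beside -0.64 in its other probe set. *Etv4* and *Etv1* differed by -0.34 ± 0.28 and -0.27 ± 0.16. *Spred3*, an inhibitor of the cascade, differed by -0.23 ± 0.08 without overlap, which 0.817% of all genes showed in that direction.

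Immediate early genes had 11 of 16 above 0 and a median of 0.02 (-0.04 to 0.09 leaving out each pool). *Egr1* was at 8.004, 8.79, 9.28 and 9.11 in the WT pools and 9.14, 8.97, 9.25 and 9.51 in the *Rsk2-/Y* pools, where WT 1 was the low pool (0.42 ± 0.24). *Fos*, whose protein RSK2 phosphorylates, differed by 0.13 ± 0.09 and *Jun* by -0.23 ± 0.08, the latter without overlap. In the cell cycle list 24 of 33 genes lay below 0, with a median of -0.04 (-0.08 to 0.02 leaving out each pool). The D cyclins *Ccnd1*, *Ccnd2* and *Ccnd3* differed by -0.17 ± 0.07, -0.12 ± 0.10 and -0.16 ± 0.08. The p53 and apoptosis genes had 14 of 24 above 0 (median 0.0044) and the ATF4 targets 14 of 23 (median 0.02). A single gene of these, *Stc2* (0.25 ± 0.11), was at an unadjusted p under 0.05, beside 1.38% of all genes in each direction. Both medians changed sign when single pools were left out.

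Signals of the enamel knot, which pattern the crown, had 17 of 22 genes below 0 and a median of -0.06, and none at an unadjusted p under 0.05 (limma). The median was -0.22 without WT 2 and -0.0023 without the unnumbered WT pool. *Shh*, the hedgehog ligand that marks the knot, was at 8.67, 7.83, 9.14 and 9.30 in the WT pools and 8.76, 7.83, 8.25 and 8.69 in the *Rsk2-/Y* pools. WT 2 and *Rsk2-/Y* 3 shared the lowest value, and the spread within each genotype was larger than the difference of -0.35 ± 0.30. *Fgf20*, *Wnt7b* and *Bmp7* differed by -0.25 ± 0.16, -0.21 ± 0.11 and -0.19 ± 0.12. The r of the enamel knot mean with the mean of the epithelial transcription factors was 0.91 over the 8 pools.

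Across the pathways of tooth patterning the medians were -0.06 for hedgehog (9 of 16 below 0), -0.03 for FGF ligands and receptors (14 of 22 below 0), -0.05 for WNT (27 of 39 below 0), -0.0043 for BMP and TGF-beta (21 of 39 below 0) and -0.01 for EDA and NF-kappaB (10 of 16 below 0). Leaving out each pool in turn, they ranged over -0.08 to -0.03, -0.05 to -0.0039, -0.10 to -0.0047, -0.04 to 0.04 and -0.07 to 0.03. Over these 5 pathways 4 genes above 0 and 3 below it reached an unadjusted p under 0.05, beside 1.38% of all genes in each direction. *Wif1*, a secreted WNT inhibitor, was at 9.04, 8.72, 9.01 and 9.46 in the WT pools and 9.38, 9.60, 9.07 and 9.63 in the *Rsk2-/Y* pools (0.36 ± 0.16), *Lgr5*, a receptor of R-spondins, at 10.39, 10.62, 10.86 and 10.76 in the WT pools and 10.29, 10.23, 10.47 and 10.47 in the *Rsk2-/Y* pools (-0.29 ± 0.11) and *Fgf18* at 9.45, 9.55, 9.77 and 9.82 in the WT pools and 9.11, 9.30, 9.51 and 9.47 in the *Rsk2-/Y* pools (-0.30 ± 0.11). The BMP regulators *Chrdl1* and *Bambi* differed by 0.31 ± 0.13 and 0.29 ± 0.12, the EDA family receptor *Tnfrsf19* by 0.19 ± 0.08 and the WNT receptor *Fzd6* by -0.25 ± 0.11. In a list of 16 genes drawn up for a link to extra teeth, 14 lay below 0 (median -0.06, and -0.09 to -0.01 leaving out each pool). *Wif1* was the only one at an unadjusted p under 0.05 (limma), and the study did not name it among mouse mutants with such teeth. *Osr2* and *Edaradd* of that list differed by -0.18 ± 0.20 and -0.23 ± 0.12, and *Pax9* of the dental mesenchyme by -0.30 ± 0.16.

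Retinoid genes had 14 of 23 above 0 and a median of 0.02 (-0.03 to 0.04 leaving out each pool). *Rbp4*, the retinol carrier of plasma, was at 7.76, 7.26, 6.44 and 6.51 in the WT pools and 8.07, 6.66, 8.91 and 6.64 in the *Rsk2-/Y* pools, whose 4 highest pools were those of the plasma protein genes below (0.58 ± 0.49). The genes that the study listed as higher had 11 of 17 above 0 (median 0.02), 1 of them, *Myh1* (0.47 ± 0.15), at an unadjusted p under 0.05, and those it listed as lower had 18 of 24 below 0 (median -0.03), none at that level. The study chose these lists on samples that include these pools, so their direction is no independent evidence. The medians ranged over -0.02 to 0.04 and -0.04 to -0.0082 leaving out each pool.

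Genes that the liver secretes into plasma differed between pools more than any other list. In the list 19 of 20 genes lay above 0 with a median of 0.48. Only 1 of the 20, the heme carrier hemopexin *Hpx*, was higher at an unadjusted p under 0.05 (0.38 ± 0.17), beside 1.38% of all genes. List means were 6.66, 6.59, 5.89 and 5.77 in the WT pools and 7.24, 5.79, 7.97 and 5.81 in the *Rsk2-/Y* pools. *Rsk2-/Y* 4 and 1 were highest, WT 1 and 2 next, and the remaining 4 pools of both genotypes lay within 5.77 to 5.89. *Afp*, the fetal albumin-like protein, was at 8.06, 8.12, 6.12 and 5.24 in the WT pools and 9.49, 5.73, 9.96 and 5.55 in the *Rsk2-/Y* pools, a wide range with a genotype difference of 0.80 ± 1.05. *Ahsg*, *Ttr* and *Trf*, which encode fetuin, transthyretin and transferrin, differed by 0.86 ± 0.84, 0.80 ± 0.51 and 0.74 ± 0.49. Without *Rsk2-/Y* 4 the median of the list was 0.13 and 14 of 20 genes lay above 0.

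Erythroid genes were also highest in *Rsk2-/Y* 4, with means of 7.71, 7.63, 7.22 and 7.24 in the WT pools and 7.59, 7.36, 8.40 and 7.23 in the *Rsk2-/Y* pools and an r of 0.93 with the plasma protein means over the 8 pools. The list's median was 0.20, and -0.095 without *Rsk2-/Y* 4. *Rhag*, a red cell membrane protein, was at 5.66, 5.20, 4.64 and 4.58 in the WT pools and 5.65, 4.52, 7.24 and 4.60 in the *Rsk2-/Y* pools (0.48 ± 0.52). Macrophage genes had 18 of 19 above 0 (median 0.12) and were highest in the unnumbered *Rsk2-/Y* pool, with a list mean of 8.08 against 7.49 to 7.73 in the other 7. Without that pool the list's median was -0.0026. *Tyrobp*, an adaptor of myeloid cells, differed by 0.27 ± 0.16 and the lysozyme gene *Lyz2* by 0.31 ± 0.18. Endothelial genes had 16 of 22 below 0 (median -0.03, and -0.16 to 0.03 leaving out each pool) and no gene at an unadjusted p under 0.05 in either direction (limma), and their list means ran from 8.56 to 9.09, highest in the unnumbered *Rsk2-/Y* pool.

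**Figure D5:**
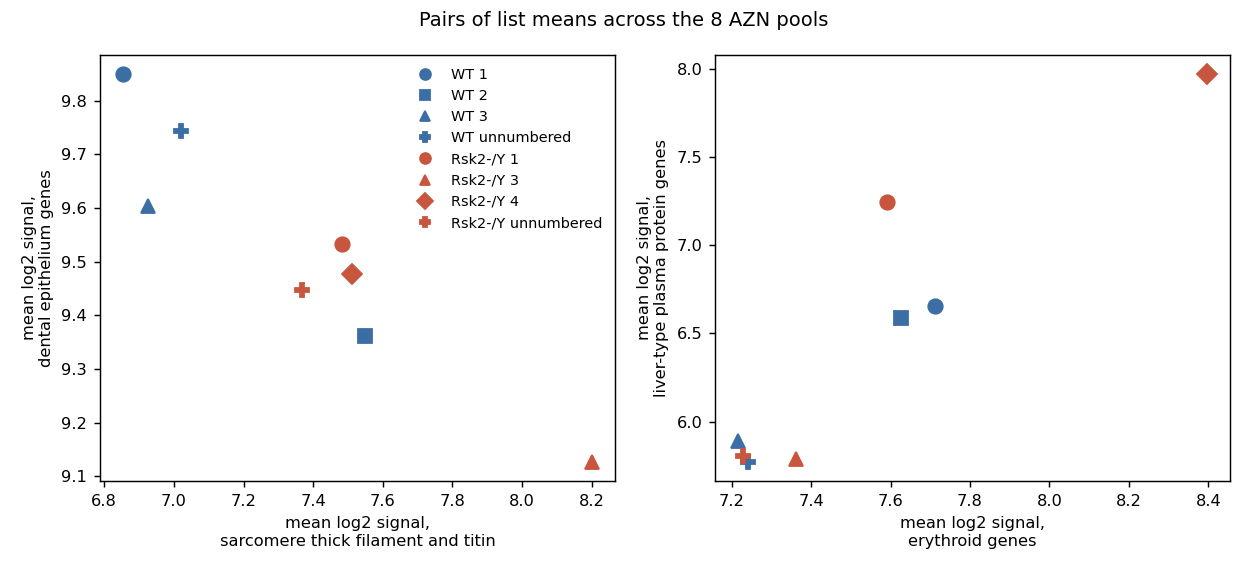
Mean log2 signals of pairs of gene lists in the 4 WT pools (blue) and 4 *Rsk2-/Y* pools (red). On the left the dental epithelium mean (y axis) decreases as the thick filament mean (x axis) increases, with *Rsk2-/Y* 3 at the lower right and WT 2 beside the other *Rsk2-/Y* pools. On the right the plasma protein mean (y axis) increases with the erythroid mean (x axis), and *Rsk2-/Y* 4 lies at the upper right.

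Nerve genes had 12 of 18 below 0 and a median of -0.09 (-0.11 to -0.04 leaving out each pool). Of the 18, 3 were lower and none higher at an unadjusted p under 0.05, beside 1.38% of all genes in each direction. *Nefl*, a neurofilament of axons, was at 8.97, 9.30, 9.28 and 9.35 in the WT pools and 8.78, 9.19, 8.51 and 8.52 in the *Rsk2-/Y* pools, where *Rsk2-/Y* 3 lay among the WT pools and the other *Rsk2-/Y* pools below all of them (-0.47 ± 0.15). *Nefm* differed by -0.35 ± 0.14. Schwann and glial genes had a median of -0.0048 (-0.07 to 0.08 leaving out each pool).

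*Crygd*, a crystallin of lens fibres, had the lowest difference, at 6.17, 5.37, 4.57 and 3.92 in the WT pools and 4.02, 3.86, 3.79 and 3.91 in the *Rsk2-/Y* pools. WT 1 and WT 2 were above 5 and the other 6 pools below it (-1.11 ± 0.38). *Cryba1* (-0.70 ± 0.24), *Cryga* (-0.46 ± 0.17) and *Bpifb9b* (-1.03 ± 0.40), a secreted protein of nasal and oral glands, were also highest in WT 1 and WT 2. *Crygd*, *Cryba1* and *Bpifb9b* were above the signal threshold of 5 in these 2 pools alone, so the filter kept them through the group where they were high, and their low differences are no result. *Sim2*, a bHLH-PAS factor, was at 9.06, 9.48, 8.34 and 8.45 in the WT pools and 8.09, 7.38, 8.59 and 7.58 in the *Rsk2-/Y* pools (-0.92 ± 0.29), with *Rsk2-/Y* 4 inside the WT range. *Idi2*, an isomerase of isoprenoid synthesis, differed by -0.69 ± 0.37. Over the 13 crystallin genes tested the median was 0.01 (-0.03 to 0.02 leaving out each pool).

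Controls were near 0. Housekeeping genes had a median of 0.0026 with 6 of 12 above 0 (-0.02 to 0.03 leaving out each pool), and stress genes that dissection can induce a median of -0.03 (-0.07 to -0.0037), led by *Hspa1a* at -0.18 ± 0.07. Genes of hypoxia and glycolysis had a median of -0.04 (-0.10 to -0.0083), and apart from *Car12* none was at an unadjusted p under 0.05.

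The ABH pools, 4 of each genotype with their own WT samples, were set beside these values. A limma interaction over all 16 pools called 0 of 17136 genes for a difference between the genotype differences of AZN and ABH (0.0%, smallest adjusted p = 0.448), and at an unadjusted p under 0.05 it had 676 genes with a larger and 303 with a smaller difference in AZN. The contractile genes had 59 of 74 above 0 in ABH, with a median of 0.19 beside 0.43 in AZN, and the epithelial genes 63 of 65 below 0, with a median of -0.19 beside -0.22. Over all genes 63.4% lay below 0 in ABH and the median was -0.033. *Myh3* differed by 0.58 in ABH, *Krt15* by -0.45 and *Il17re* by -0.27, on the same side of 0 as in AZN. *Mid1* and *Meis2* were at 0.11 and 0.10 there, on the other side of 0, and *Ctnnd2* was at -0.03. Of the 12 higher genes named for the smallest p, *Steap3* (-0.23), *Cmya5* (-0.03) and *Omd* (-0.03) lay below 0 in ABH. The others lay above it, with *Csrp3* at 0.0004. Of the higher genes named in the patterning pathways, *Wif1*, *Bambi* and *Chrdl1* were at -0.32, -0.16 and -0.09 in ABH, and *Tnfrsf19* at 0.13. Of the 236 genes higher in AZN at an unadjusted p under 0.05, 126 lay above 0 in ABH (53.4%, beside 36.6% of all genes), and of the 237 lower genes 178 lay below 0 (75.1%, beside 63.4%).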

How the data were processed

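Total RNA of pooled molar germs had been hybridised by the authors to Affymetrix Mouse Gene 1.0 ST arrays, and the deposited values are log2 signals normalized by the authors with RMA in Affymetrix Expression Console 1.3.1.187 over all samples. The genome build behind the probe annotation is not given in the sources used here. Of 35556 probe sets, 21789 had 1 gene symbol, 1621 had several and 12146 had none, and only the first were used. The 8 AZN pools were fitted alone with limma 3.58.1 (R 4.3.3) on the log2 scale without covariates, with Benjamini-Hochberg adjustment over 18747 probe sets, and the interaction with ABH over all 16 pools. Reads are not involved, so the number of arrays limits the precision. Single genes that their values had not chosen were tested by exact permutation over 70 arrangements. The script was tested on simulated data.

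Named genes were the RSK, MSK and sex-linked genes, in each direction the 12 with the smallest unadjusted p beyond 1.2-fold with a mean signal of at least 6 in either genotype and the 6 with the largest difference, and up to 4 members of each list with the largest difference. *Cav3*, *Fzd6*, *Hpx*, *Lama3*, *Lmod3*, *Myl4*, *Mylk4*, *Myom3*, *Myot*, *Nebl*, *Ppef1*, *Smpx* and *Sp7* were named outside this rule, after their values were seen. Members and lists were chosen with earlier results of these data known. The shared numbers 1 and 3 were not treated as pairs, since pools of the same number did not deviate together. The unnumbered pools, which share no number, did. Alternatives were other filters, the mean over probe sets, the methods' t-test, array weights, median centring, replicate blocks, and leaving out each pool.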

Additional observations from a re-analysis of the deposited data

Results flagged for a closer look

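In 19 of 330 groups of 4 pools, 1 pool stood apart from the other 3 by Dixon's criterion, which chance meets in about 1 of 20 groups. *Rsk2-/Y* 3 was the pool apart in 11 of these. Its list means were 8.58 for myogenic regulators, above the other 3 pools, and 6.61 for oral surface keratins and cornified genes, below them. Its signal was the highest of its genotype for *Myod1* (9.33), *Rxrg* (9.34), *Tnnc1* (10.45), *Ldb3* (8.50), *Lmod3* (7.81), *Mylk4* (8.35), *Smpx* (8.08) and *Stc2* (7.12), and the lowest for *Edaradd* (8.22).

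WT 2 stood apart within WT in the mean of the thin filament and Z disc list (8.21) and in *Myh8* (8.53), *Myl4* (10.38) and *Myot* (6.95), where it was highest, and in *Ctnnd2* (9.09), where it was lowest. WT 1 was the high pool for *Xist* (6.68) and the unnumbered WT pool for *Ifitm5* (9.62). The unnumbered *Rsk2-/Y* pool was the high pool for macrophage genes, with a mean of 8.08. Without *Rsk2-/Y* 3 the median difference of the myogenic regulators was 0.07, beside 0.11 with all pools, and without the unnumbered *Rsk2-/Y* pool that of the macrophage genes was -0.0026, beside 0.12.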

How the results depend on the processing

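No gene was called (limma and the methods' t-test) under the 16 alternatives chosen first. Leaving out each pool in turn gave 0 to 0 genes called, 134 to 420 higher and 159 to 505 lower genes at an unadjusted p under 0.05, and 0 to 0 called by the AZN and ABH difference. The shared numbers 1 and 3 had correlations of their deviations from the group means of -0.034 and -0.013. Such values cannot tell whether these pools were collected or processed as pairs, which the labels do not say. The unnumbered WT and *Rsk2-/Y* pools, which carry no number, had 0.685, the highest of the 16 combinations. A fixed replicate block was fitted on the pools numbered 1 and 3 of each genotype alone. WT 2, *Rsk2-/Y* 4 and both unnumbered pools were left out. It had 459 higher and 462 lower genes at an unadjusted p under 0.05 (limma). Its values differ from the main ones in the pools used as well as in the block. A random replicate block over all 8 pools had 449 and 465, and neither block called a gene. The fixed block gave medians of 1.03, 1.10 and 0.54 for the thick filament, thin filament and excitation lists, with 55 of 74 contractile genes higher at an unadjusted p under 0.05, and of -0.19, -0.13 and -0.13 for the RSK and MSK, ERK cascade and hypoxia lists. An alternative chosen after seeing the data left out both WT 2 and *Rsk2-/Y* 3, the pools with the highest muscle means of their genotypes. It called 5 genes, *Myh3*, *Myh8*, *Tnnc1*, *Myl4* and *Myot*, with 409 lower genes at an unadjusted p under 0.05 and an osteoblast median of 0.12. These pools were chosen for the level of such genes, so the 5 calls support nothing. A second such alternative, the unnumbered pools as a block, called 0, with 350 higher and 317 lower genes at that level. Of the 125 genes named, 117 kept the sign of their difference throughout, and 8 did not. *Rps6ka3* was at -0.051 with the fixed block and between -0.018 (without WT 2) and 0.113 when pools were left out. *Rps6ka6* ranged from -0.135 to 0.014 (without WT 1) and *Xist* from -0.290 to 0.214 (without WT 1). *Eif2s3y* was at 0.039 with array weights, 0.0040 with the fixed block, 0.075 without WT 2 and *Rsk2-/Y* 3, and ranged from -0.197 to 0.094 (without the unnumbered *Rsk2-/Y* pool). *Kdm5d* ranged from -0.105 to 0.015 (without the same pool) and *Uty* from -0.077 (without the unnumbered WT pool) to 0.147. *Rhag* was at -0.064 with the fixed block and ranged from -0.095 (without *Rsk2-/Y* 4) to 0.813, and *Ahsg* from -0.0027 (without *Rsk2-/Y* 4) to 1.43. The cause was not tested.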

Other observations

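Plasma protein, erythroid and macrophage genes lay on opposite sides of 0 in the 2 sets of pools, each against its own WT pools. Plasma protein genes had a median difference of 0.48 in AZN, with 19 of 20 above 0, and of -0.19 in ABH, with 18 of 20 below 0. Erythroid genes were at 0.20 in AZN and -0.32 in ABH, and macrophage genes at 0.12 and -0.06, with 15 of 19 below 0 in ABH. Over all genes 63.4% lay below 0 in ABH, with a median of -0.033, so the macrophage median there lay close to that of all genes. The AZN values depended on single pools. Without *Rsk2-/Y* 4 the plasma protein median was 0.13 and the erythroid median -0.095, and without the unnumbered *Rsk2-/Y* pool the macrophage median was -0.0026. Oral surface keratins and cornified genes were at -0.02 in AZN and -0.27 in ABH, where 18 of 19 lay below 0, and *Krt13* differed by -1.01 there. Tendon genes lay above 0 in 10 of 11 cases in both sets, with medians of 0.21 and 0.10. The limma interaction called none of these genes.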
